A study of Mus musculus with 6 samples.

Results

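Genomic imprinting leaves some genes active on the copy from only 1 parent, and mouse distal chromosome 7 holds a pair of adjoining imprinted domains. The 10 genes described here are Cdkn1c, Phlda2, Slc22a18, Kcnq1ot1, Kcnq1, Cd81, Tssc4 and Nap1l4 from the Kcnq1ot1 domain, and Igf2 and H19 from the domain beside it. They were taken by symbol from the deposited liver RNA-seq table of 27179 genes, and all 10 were found and tested. The set was selected on the folds of this same comparison, so its counts and p-values below are a description and carry no test of the set. LSD1-LKO mice were adult C57BL/6 mice with floxed Lsd1 alleles that received AAV8-TBG-Cre at 6 to 7 weeks of age, and Control mice carried the same alleles and received AAV8-TBG-GFP. TBG is the hepatocyte promoter of thyroxine-binding globulin, so Cre was meant to act in hepatocytes and to spare the other cells of the liver. Lsd1 was not measured by cell type in these data. All mice ate a high-fat diet from a week after the virus, and livers of 3 LSD1-LKO and 3 Control mice gave poly-A RNA. Sources differ on how long they ate it, with 12 weeks in the series description and less in the study's methods, and the sex of the 6 mice is not labelled.

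In the Kcnq1ot1 domain, the long noncoding RNA Kcnq1ot1 starts within an intron of the potassium channel gene Kcnq1, antisense to it, at a CpG-rich imprinting control region that is methylated on the maternal chromosome. It is made from the paternal chromosome, where it silences flanking genes in cis through repressive chromatin, so Cdkn1c, Phlda2 and Slc22a18 are expressed chiefly from the maternal copy. In the neighbouring domain, the insulator protein CTCF binds the unmethylated maternal control region, and enhancers then act on the noncoding RNA H19, whereas on the paternal chromosome they act on the growth factor gene Igf2. In mouse liver both Igf2 and H19 are abundant before birth and are shut down in the weeks after it. LSD1, encoded by Kdm1a, removes methyl groups from lysine 4 of histone H3, and its homolog LSD2, encoded by Kdm1b, is required for setting maternal imprints in the mouse oocyte. Reads were not assigned to a parent here, so every value below sums both alleles. The genes are grouped by domain only, and whether each of them is imprinted in adult liver was not tested.

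The stretches of 250 bases before the annotated RefSeq starts of Kcnq1ot1, Phlda2 and Slc22a18 are shown because these are 3 of the 4 members with a called fold, and the table of promoters used holds an entry for each. All are in build GRCm38.p6, read 5′ to 3′ on the strand of the gene. Kcnq1ot1 lies on the minus strand at chr7:143296548-143296797, Phlda2 on the minus strand at chr7:143502525-143502774 and Slc22a18 on the plus strand at chr7:143473539-143473788. Capitals mark CCAAT, the letters of the CCAAT box, or ATTGG, the same letters on the other strand.
Kcnq1ot1: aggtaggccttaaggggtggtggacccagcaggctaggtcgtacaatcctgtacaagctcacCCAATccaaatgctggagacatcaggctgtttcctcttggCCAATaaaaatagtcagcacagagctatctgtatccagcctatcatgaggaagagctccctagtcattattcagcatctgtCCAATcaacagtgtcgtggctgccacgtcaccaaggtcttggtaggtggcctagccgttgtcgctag
Phlda2: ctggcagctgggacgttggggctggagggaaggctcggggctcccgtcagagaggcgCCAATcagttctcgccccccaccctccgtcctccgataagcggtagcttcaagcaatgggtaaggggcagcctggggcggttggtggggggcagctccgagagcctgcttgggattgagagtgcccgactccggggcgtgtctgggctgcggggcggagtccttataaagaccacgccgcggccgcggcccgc
Slc22a18: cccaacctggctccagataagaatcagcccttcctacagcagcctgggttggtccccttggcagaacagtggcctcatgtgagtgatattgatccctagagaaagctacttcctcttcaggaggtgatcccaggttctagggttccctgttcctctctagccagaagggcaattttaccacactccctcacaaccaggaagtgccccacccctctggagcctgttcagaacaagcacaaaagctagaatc

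The Kcnq1ot1 stretch held CCAAT at 3 places on the strand of the gene, beginning 188, 148 and 67 bases before the start. CCAAT on either strand occurred in 33.8% of the 32851 RefSeq stretches of the same length, and at 3 or more places in 2.79% of them. The same Kcnq1ot1 stretch had 51.2% GC and 5 CpG, more than in 44.4% of all stretches, whose median was 6. This stretch was thus not itself rich in CpG. It held neither GGGCGG, the letters of the GC box, nor TATAAA, those of the TATA box, on either strand. The Phlda2 stretch was of another kind, with 21 CpG, more than in 83.7% of all stretches, and 68.8% GC. It held CCAAT once, 193 bases before the start, GGGCGG at 2 places and TATAAA at 1. GGGCGG occurred in 32.7% and TATAAA in 12.4% of all stretches. The annotated Phlda2 start used for this entry lies inside the gene's span, which reaches further upstream in other transcripts. The Slc22a18 stretch had 0 CpG, 52.8% GC and none of these letters. The Slc22a18 start used likewise lies inside the gene's span, which begins further upstream, so its stretch overlaps that span. The 3 promoters of the called genes therefore shared no motif among those searched. These matches describe the letters of the windows only, and no binding or chromatin data of these livers were analysed here. In all, 6 of the 10 members had an entry.

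Every value that follows comes from 1 comparison that the authors deposited, in which DESeq2 compared the 3 LSD1-LKO with the 3 Control livers. It gives for each gene a log2 fold change of LSD1-LKO over Control with its SE and p-values, and a base mean, the average normalised read count over all 6 livers. It gives no value per liver, so levels of the groups and the overlap of their livers cannot be shown, and the depth of each library is unknown. Mean levels are written as CPM, the base mean as a share of all base means summed, scaled to 1000000. Folds had been shrunk toward 0 before deposit, which understates those of weakly expressed genes. A gene was called higher or lower at an adjusted p under 0.05. Of 14257 tested genes, 12.3% were called higher and 5.93% lower in LSD1-LKO livers, a split of 1754 against 846 genes, or 67.5% higher. After the folds were shifted so that genes from 10 CPM upward had a median of 0 (it was −0.04), it was 1992 against 573, or 77.7% higher. Kdm1a, the deleted gene, was lower at −1.50 ± 0.16 (adjusted p = 1.32e-19), which is the direction in which the ratio was read, since the table does not name its numerator. Kdm1b was at −0.22 ± 0.10 and was not called (adjusted p = 0.125).

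Among the members, 4 of 10 were called higher in LSD1-LKO livers, Phlda2, Cdkn1c, Kcnq1ot1 and Slc22a18, and 0 were called lower, beside the 12.3% and 5.93% of all tested genes. Because the members were chosen by these values, nothing is read from that share. Their median log2 fold was 0.19, beside −0.01 over all tested genes, and the 10 folds ran from −0.22 to 1.91. All 4 called genes belong to the Kcnq1ot1 domain, whose 8 members had a median of 0.41, and the Igf2 and H19 pair had a median of 0.06 with no call.

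**Figure D1:**
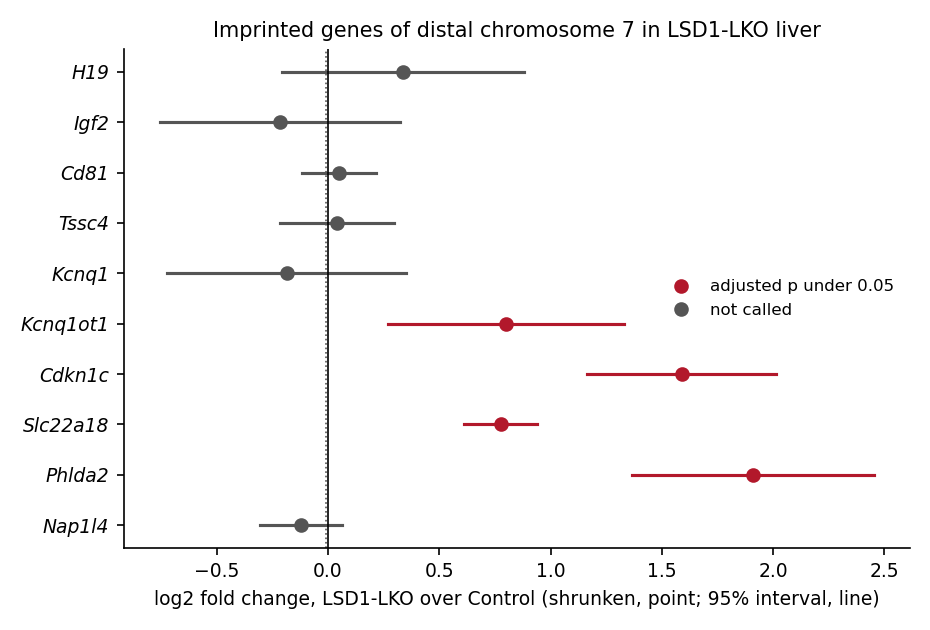
Log2 fold change of LSD1-LKO over Control (points) with its 95% interval (lines) for the 10 genes, listed in their order along chromosome 7, red where the adjusted p was under 0.05. The dotted line is the median of all tested genes (−0.01). The intervals of Kcnq1ot1, Cdkn1c, Slc22a18 and Phlda2 lie above 0, and those of the other members include it.

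Phlda2 and Cdkn1c had the highest folds of the set. Phlda2, which encodes a pleckstrin homology domain protein that limits growth of the placenta (Entrez 22113; GRCm38 chromosome 7, 143501545 to 143503145), was higher in LSD1-LKO at 1.91 ± 0.28. That is a 3.76-fold level (95% interval 2.58 to 5.48, adjusted p = 2.00e-10), and its fold ranked 115 among the 14257 tested genes. Its mean level was low, at a base mean of 15.6 or 0.755 CPM. Cdkn1c encodes p57Kip2, a protein of the Cip/Kip family that inhibits cyclin-dependent kinases (Entrez 12577; 143458339 to 143461059). It was higher at 1.59 ± 0.22, a 3.01-fold level (95% interval 2.24 to 4.04, adjusted p = 1.17e-11), with a base mean of 60.9 or 2.95 CPM and a fold rank of 203. The 95% intervals of Phlda2, 1.37 to 2.45 on the log2 scale, and of Cdkn1c, 1.16 to 2.01, overlapped, and the difference between their folds was not tested.

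Slc22a18, a membrane protein of the organic cation transporter family (Entrez 18400; 143473726 to 143499334), lies between these genes and was the abundant one of the called members. Its base mean was 2288, or 111 CPM, above 91.5% of tested genes. It was higher in LSD1-LKO at 0.78 ± 0.08, a 1.71-fold level (95% interval 1.53 to 1.92). Its adjusted p of 1.97e-18 was the smallest of the set, with a smaller fold than those of Phlda2 and Cdkn1c and an SE about that of other abundant genes. By level, 11.2% of all tested genes of at least 100 CPM were called higher and 17.7% lower.

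Kcnq1ot1 (Entrez 63830; 143213111 to 143296547, minus strand) was higher as well, at 0.80 ± 0.27, a 1.74-fold level with a wide 95% interval of 1.20 to 2.52. This was the weakest of the 4 calls (adjusted p = 0.0215), made on a base mean of 19.5 or 0.942 CPM, and it was lost at an adjusted p under 0.01. Kcnq1ot1 and the 3 other called members of its domain thus had folds of the same sign in the sum of both alleles. The remaining members of that domain, Kcnq1, Cd81, Tssc4 and Nap1l4, were not called. The host gene Kcnq1, whose product is a subunit of a voltage-gated potassium channel (Entrez 16535; 143106877 to 143427050, plus strand), was at −0.18 ± 0.27 and was not called (adjusted p = 0.748). Its base mean of 18.7 or 0.906 CPM was close to that of Kcnq1ot1, and its interval of −0.72 to 0.35 left room for a sizeable change in either direction. In the GENCODE vM21 annotation all 93092 bases of Kcnq1ot1 lie inside Kcnq1 on the other strand, and 1 exon of Kcnq1, of 121 bases, lies inside Kcnq1ot1. Whether the libraries kept strand is not given in the sources used here. Without it, reads of Kcnq1ot1 and unspliced reads of Kcnq1 cannot be told apart, and how reads of the shared interval were shared out was not tested.

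The members on the edges of the Kcnq1ot1 domain were measured more precisely and were not called. Cd81, a widely expressed membrane protein of the tetraspanin family (Entrez 12520; 143052750 to 143067930), was the most abundant member at 155 CPM and had a fold of 0.05 ± 0.09 (95% interval −0.12 to 0.22, adjusted p = 0.787). Tssc4, known in human cells as a factor of spliceosome assembly (Entrez 56844; 143068416 to 143071093), was at 0.04 ± 0.13 (−0.22 to 0.30, adjusted p = 0.903) and 11.7 CPM. Nap1l4, a histone chaperone (Entrez 17955; 143513579 to 143549882), was at −0.12 ± 0.09 (−0.30 to 0.06, adjusted p = 0.453) and 41.6 CPM. The intervals of these 3 genes end below the fold of Slc22a18, the smallest of the called folds. Whether these 3 genes are imprinted in adult liver was not tested, so their contrast with the called members is one of folds only.

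Igf2 (Entrez 16002; 142650768 to 142666816) and H19 (Entrez 14955; 142575530 to 142578146) were both near the bottom of the measured range. Igf2, the paternally expressed fetal growth factor, had a base mean of 9.98 or 0.483 CPM and a fold of −0.22 ± 0.28 (95% interval −0.76 to 0.33, adjusted p = 0.697). H19, the maternally expressed noncoding RNA that is the host of a microRNA, had a base mean of 12.1 or 0.587 CPM and a fold of 0.34 ± 0.28 (−0.20 to 0.88, adjusted p = 0.480). The folds had opposite signs, but their intervals overlapped and both held 0, so at this depth no change of either gene was detectable. The microRNA genes inside them, Mir675 in H19 and Mir483 in Igf2, had a base mean of 0, and poly-A libraries do not capture microRNAs as such. Igf2 also shares its whole span with another gene model on its strand in GENCODE vM21 and 7124 bases with the antisense Igf2os, which was at 0.00745 CPM.

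Per kilobase of the longest GENCODE vM21 transcript, Cd81 had the highest mean level over all 6 livers (96.4 CPM per kb), followed by Slc22a18 (71.3), Nap1l4 (18.2) and Tssc4 (6.76). Then came Cdkn1c (1.55), Phlda2 (0.997), Kcnq1 (0.299), H19 (0.257), Igf2 (0.102) and Kcnq1ot1 (0.0101) on the same scale, and the very low value of Kcnq1ot1 goes with its length of 93092 bases. By the median length of a gene's GENCODE transcripts the order shifted, with Kcnq1 at 3.08 CPM per kb above Phlda2 at 2.01, below Cdkn1c at 4.42, and Igf2 (0.504) level with H19 (0.498). The table gives no spread of these levels between livers, so neighbours in this order cannot be said to differ. Calls occurred in its upper and lower parts. Of the 5 members below 1 CPM, 2 were called higher, with SE of 0.271 to 0.277, near the highest SE of the table (0.278). Of the 4 members of at least 10 CPM, 1 was called higher. Over all tested genes, 5.72% below 1 CPM were called higher and 0.297% lower, against 12.1% higher and 8.18% lower from 10 to 100 CPM. From 1 to 10 CPM, the range of Cdkn1c, 16.4% were called higher and 2.22% lower.

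**Figure D2:**
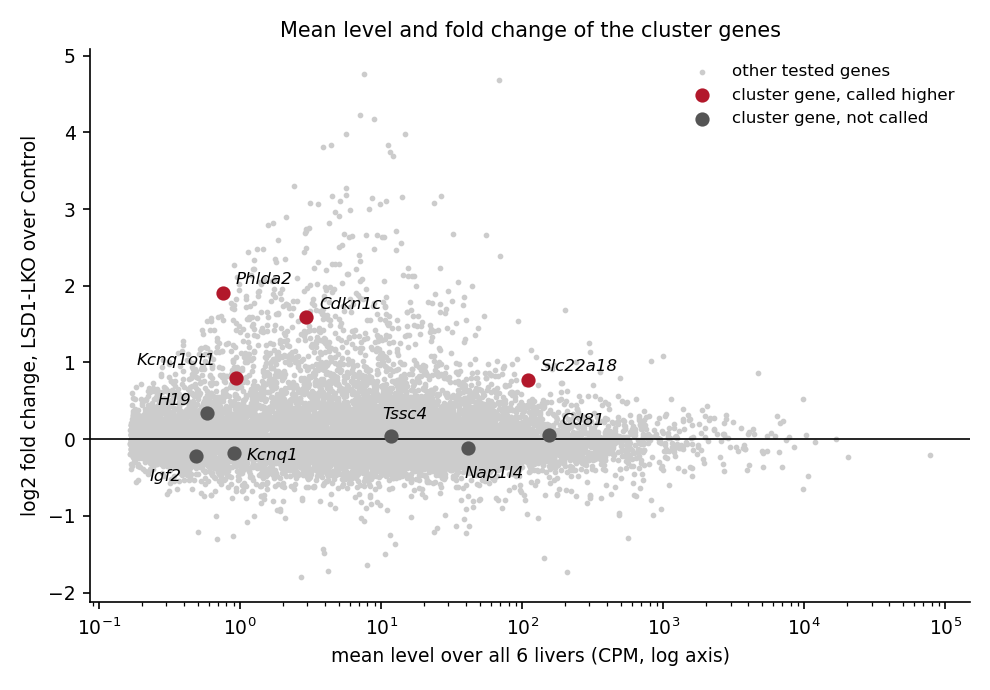
Mean level over all 6 livers (CPM, log axis) against log2 fold change of LSD1-LKO over Control for all 14257 tested genes (grey), with the 10 cluster genes marked, red where called higher. Phlda2 (0.755 CPM) and Cdkn1c (2.95 CPM) lie high on the weakly expressed side, Slc22a18 (111 CPM) stands above most genes of its level, and Igf2 and H19 lie at the low end near 0.

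Along the chromosome, the 3 called protein-coding members were neighbours. Cdkn1c, Slc22a18 and Phlda2 occupy 44.8 kb with gaps of 12.7 and 2.21 kb between them, and no other gene of the table lies in that stretch. Kcnq1ot1 lies 161.8 kb away on the side of Cdkn1c. From the far end of Kcnq1ot1 to Phlda2, over 290.0 kb, 6 genes were listed, of which 5 were tested. Of the tested ones, 4 were called higher, and the exception was Kcnq1. Both ends of that stretch were set by called genes, so nothing is read from this count. Over all tested genes, 12.3% were called higher. On the far side of Phlda2 the next genes had no call. Nap1l4, 10.4 kb beyond it, was not called, and neither was Cars, the cysteinyl-tRNA synthetase gene after Nap1l4, at 0.06 ± 0.13 (19.2 CPM, adjusted p = 0.852). Osbpl5, an oxysterol-binding protein gene imprinted in mouse placenta, was at 0.05 ± 0.20. On the near side, Tssc4 and Cd81 lie 0.485 kb apart, and Igf2 lies 385.9 kb from Cd81. Of 11 further genes within the span of the members, 1 was tested, R74862, which overlaps Cd81 on the other strand (0.09 ± 0.24, adjusted p = 0.881), and 6 had a base mean of 0. Ascl2, a placental transcription factor gene of the same domain, was at 0.00788 CPM and could not be tested.

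Within 1 Mb on either side of the members, 51 other genes were listed, of which 20 were tested. Beside 12.3% and 5.93% of all tested genes, 4 of the 20 were called higher and 0 lower, with a median of 0.07. The steepest of the 4, Mrgpre, a gene for an orphan receptor of the Mas-related family, was at 1.83 ± 0.22 (3.27 CPM, adjusted p = 2.10e-15), a 3.56-fold level, beside 3.76-fold for Phlda2. It lies 275.2 kb beyond Phlda2, with Nap1l4, Cars, Osbpl5 and other genes without a call between them. Next in size were Shank2, a scaffold protein gene, at 0.77 ± 0.16 (adjusted p = 2.04e-05) and Dhcr7, which encodes the last enzyme of the Kandutsch-Russell route of cholesterol synthesis, at 0.51 ± 0.11 (adjusted p = 9.18e-05). Ap2a2, which encodes a subunit of the clathrin adaptor AP-2, lies on the far side of H19 and was at 0.31 ± 0.10 (adjusted p = 0.00912). Of 7 tested neighbours listed for the Kcnq1ot1 domain, Dhcr7 was the 1 called, and their median was 0.05. That list does not hold Mrgpre, which lies nearer to the members than Dhcr7. None of the 6 tested neighbours listed for the Igf2 and H19 domain was called at the DESeq2 adjusted p. At an unadjusted p under 0.05 there was 1, Mob2, which was also the one of smallest p at −0.26 ± 0.13 (adjusted p = 0.169).

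**Figure D3:**
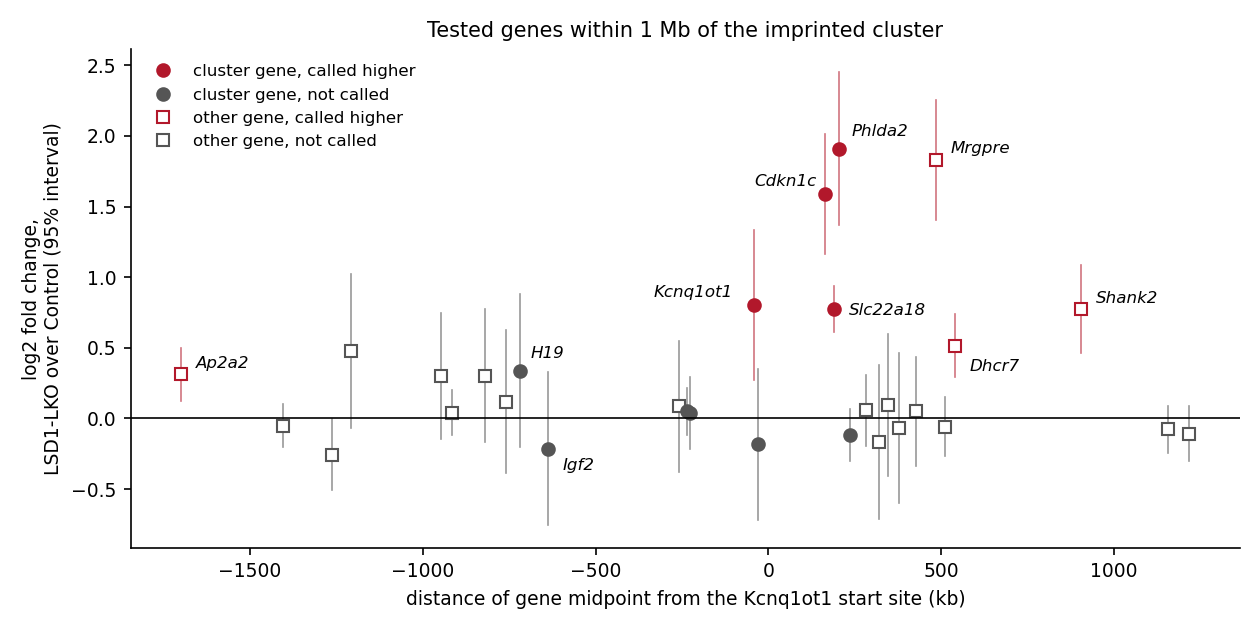
Log2 fold change of LSD1-LKO over Control (points) with 95% intervals (lines) for the tested genes from 1 Mb before to 1 Mb after the members, placed by the distance of the gene's midpoint from the Kcnq1ot1 start (kb, larger values toward the end of the chromosome). Filled circles are members, open squares other genes, and red marks an adjusted p under 0.05. Cdkn1c, Slc22a18 and Phlda2 stand together to the right of Kcnq1ot1, followed by genes near 0 and then Mrgpre at 1.83.

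Cdkn1c was next set beside the other inhibitors of cyclin-dependent kinases. Of the 5 tested, 2 were called higher and 0 lower, with a median of 0.31. Counts in this and the later lists stand beside 12.3% called higher and 5.93% lower of all tested genes. The lists were chosen with earlier results of these data known, so nothing is read from their shares. Cdkn2c, an INK4 family inhibitor of CDK4 and CDK6, was at 1.18 ± 0.19 (7.08 CPM, adjusted p = 2.24e-08) and Cdkn1b, the p27Kip1 gene, at 0.31 ± 0.11 (adjusted p = 0.0307). Cdkn1a, the p21 gene and the third member of the Cip/Kip family, was at 0.11 ± 0.26 (2.52 CPM, adjusted p = 0.853), the lowest fold of the 3 family members. Among 17 tested cyclin, CDK and proliferation genes, 1 was called higher, the G1 cyclin gene Ccnd1 (1.44 ± 0.15, adjusted p = 6.31e-21), and 1 lower, Cdk2 (−0.45 ± 0.15, adjusted p = 0.0150), and the median was −0.12.

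The genes that act with Igf2 showed 3 higher and 0 lower of 17 tested, with a median of 0.03. Igfbp5, which encodes an IGF-binding protein, was at 1.36 ± 0.23 (adjusted p = 1.81e-07), the mRNA-binding protein gene Igf2bp2 at 1.08 ± 0.25 (adjusted p = 0.000152) and Irs1, an adaptor of the insulin and IGF-1 receptors, at 0.38 ± 0.14 (adjusted p = 0.0408). Igf1, the growth factor of the adult liver, was far more abundant than Igf2 at 812 CPM and was at −0.01 ± 0.10 (adjusted p = 0.974). Of 9 tested genes of fetal liver and of their postnatal repression, 1 was called higher, the pyruvate kinase gene Pkm (0.71 ± 0.13, adjusted p = 5.79e-07), and the median was 0.25. Afp, which like H19 falls after birth in mouse liver, was at 0.54 ± 0.23 (2.45 CPM, adjusted p = 0.0799), and Zhx2, a repressor of both Afp and H19 in mouse liver, at −0.01 ± 0.10 (adjusted p = 0.963). Neither was called.

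Paralogs and partners of the members included 5 genes called higher and 0 lower of 14 tested, with a median of 0.31. Cd9, a tetraspanin like Cd81, was at 1.61 ± 0.14 (adjusted p = 1.31e-27), and Ifitm3, an interferon-induced membrane protein gene, at 0.70 ± 0.08 (adjusted p = 8.75e-16). Nap1l1 and Nap1l3, which encode proteins of the family of Nap1l4, were at 0.63 ± 0.10 (adjusted p = 8.66e-09) and 0.99 ± 0.26 (adjusted p = 0.00161), and Slc22a7, an organic anion transporter of the family of Slc22a18, was at 1.54 ± 0.25 (adjusted p = 2.44e-08). The tetraspanin genes Cd151 and Cd82 were at 0.04 ± 0.09 and 0.03 ± 0.10 and, like Cd81, were not called. Phlda1, a relative of Phlda2, was at 0.71 ± 0.28 and narrowly missed the threshold (adjusted p = 0.0532), and Phlda3 was at 0.09 ± 0.28 (adjusted p = 0.901).

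The list of imprinted genes of other chromosomes or other domains, chosen with earlier results of these data known, had 38 tested genes. Beside 12.3% and 5.93% of all tested genes, 8 of them were called higher and 1 lower, with a median of 0.03. Those of smallest p were the retrotransposon-derived gene Peg10 (3.11 ± 0.18, adjusted p = 3.93e-63), the actin nucleator gene Cobl (1.27 ± 0.13, adjusted p = 1.16e-21), the noncoding RNA Meg3 (2.44 ± 0.25, adjusted p = 4.65e-21) and the sarcoglycan gene Sgce (1.45 ± 0.16, adjusted p = 8.09e-17). Rian, Peg3, Ddc and Ppp1r9a completed the higher ones at 2.22, 0.91, 0.60 and 0.44, and the 1 lower gene was the amino acid transporter Slc38a4 at −0.36 ± 0.08 (adjusted p = 8.07e-05). Igf2r, the maternally expressed receptor that clears IGF2, was at 0.00 ± 0.10 (40.9 CPM, adjusted p = 0.994). Among 19 tested regulators of imprints and chromatin, Kdm1a was the only call. Ctcf was at −0.11 ± 0.10 (adjusted p = 0.526), and Trim28, a corepressor that protects imprints, at −0.19 ± 0.09 (adjusted p = 0.147).

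**Figure D4:**
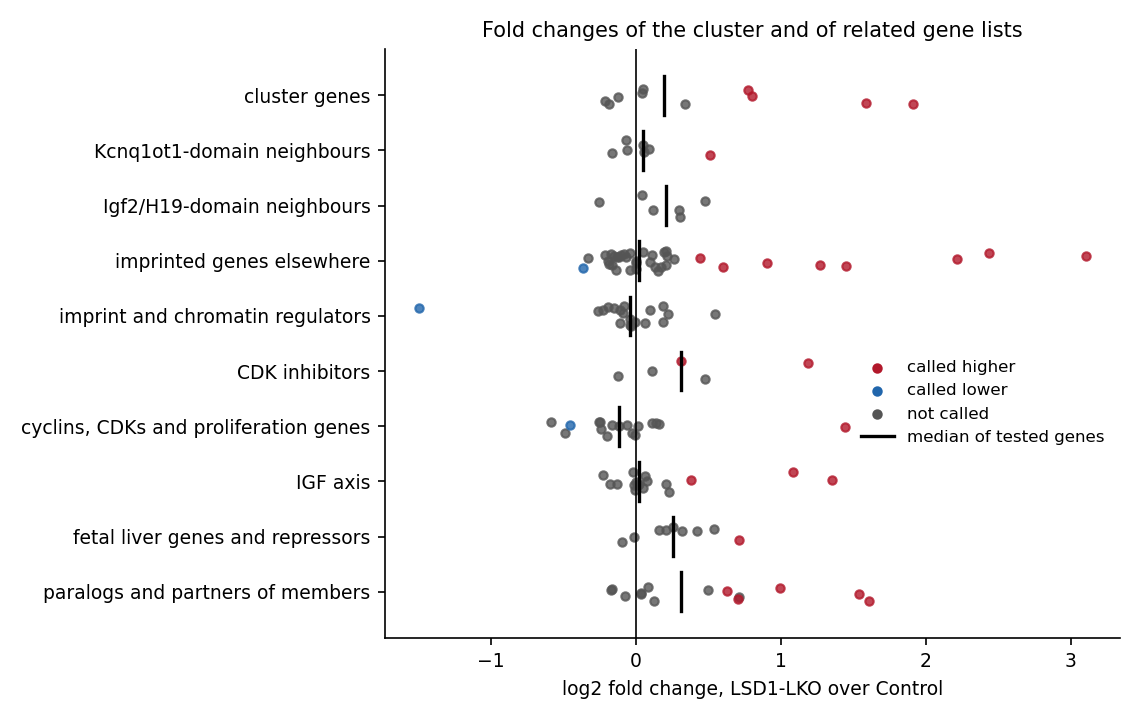
Log2 fold change of LSD1-LKO over Control for each tested gene (points) of the cluster and of 9 related lists, with the median of each list as a black line, red where called higher and blue where called lower. The cluster's 4 called genes run from 0.78 to 1.91, and the medians of the 9 lists lie between −0.12 and 0.31.

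Whole livers were sequenced, so fewer cells of a type and less RNA per cell cannot be told apart, and levels cannot be assigned to the hepatocytes in which Cre was driven. Of 50 tested markers of stellate, endothelial, Kupffer, lymphoid and neutrophil, biliary and erythroid cells, 2 were called higher, the endothelial Stab1 (0.31 ± 0.11, adjusted p = 0.0366) and the erythroid Alas2 (0.73 ± 0.11, adjusted p = 5.39e-09), and 0 lower. Their part in the members' folds was not tested. Of the 10 endothelial markers tested, 7 had negative folds, among them Kdr at −0.33 ± 0.15 and Cdh5 at −0.32 ± 0.16 (adjusted p = 0.113 and 0.150), and the list median was −0.16. Of the 3 erythroid markers tested, the globin genes were at 0.20 ± 0.19 (Hba-a2) and −0.03 ± 0.26 (Hbb-bs) beside the 0.73 of Alas2. By mean level, Alas2 was at 190 CPM, above Hba-a2 at 22.1 CPM and Hbb-bs at 22.3 CPM. Which cells the Alas2 reads came from was not tested. The medians of all 6 lists ran from −0.16 to 0.20. Among lists with no call, the gene of smallest p was Vsig4 for Kupffer cells (0.23 ± 0.15), Nkg7 for lymphocytes and neutrophils (0.38 ± 0.27) and Rgs5 for stellate cells (−0.31 ± 0.22). Of 9 hepatocyte markers, 2 were called higher, Apob (0.30 ± 0.09, adjusted p = 0.00445) and Serpina1a (0.18 ± 0.07, adjusted p = 0.0386), and 0 lower, with a median of 0.06. Albumin, Alb, was the most abundant of them at 77578 CPM and was at −0.21 ± 0.09 (adjusted p = 0.103), so the defining transcripts of hepatocytes were present at high levels in these libraries. The summed level of each list per group cannot be given from this table.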

How the data were processed

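Livers of 3 LSD1-LKO and 3 Control mice were profiled by poly-A RNA-seq. Per the labels and methods, the authors mapped reads to mm10 (GRCm38) by STAR, used StringTie for transcript assembly and ran DESeq2 on Galaxy. The sources used here give no versions, annotation, strand setting or rule for multi-mapping reads.

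The deposited table holds the comparison of the authors only. The base mean column holds a signal, which the authors computed by dividing counts by size factors and averaging the livers. The fold changes and SE were deposited on the log2 scale, and the Wald statistic the authors deposited is a score, the fold over its SE. The p-values deposited by the authors are from DESeq2, with Benjamini-Hochberg adjusted values for the 14257 genes from a base mean of 3.45 upward. The numerator is not named, and the ratio was read as LSD1-LKO over Control because Kdm1a is lower. With no values per liver, the planned edgeR and limma tests could not be run, and these columns were used as they stand. They are the authors' own comparison, so no independent test of the groups was made, and p-values reflect the spread between livers that DESeq2 saw. Unused columns with values per sample numbered 0.

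CPM is base mean over the sum of base means, times 1000000, intervals are fold ± normal 95% limits, and the depth of each liver is unknown. Genes were placed by RefSeq (GRCm38) coordinates. Overlaps and transcript lengths are from GENCODE vM21. Promoter sequences and annotated starts are from RefSeq, GRCm38.p6. Members and lists were chosen with earlier results of these data known. Named genes were all members, Kdm1a, Kdm1b, called neighbours within 1 Mb, and from each list up to 4 called genes of smallest p or, with no call, the gene of smallest p. Rian, Peg3, Ddc, Ppp1r9a, Slc38a4 and Nap1l3, which complete small counts, and all other genes named without a call fall outside it and were picked with values in view. A gene that the rule took from the list of biliary markers is not reported here.

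The alternatives tried were recentred folds, no filter on level, a minimum of 10 CPM, and thresholds of 0.01 on the adjusted or 0.05 on the unadjusted p. The adjustment was tested on simulated p-values. Python 3.11.15, numpy 2.4.6, pandas 2.3.3, scipy 1.17.1 and matplotlib 3.10.9 were used.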

Additional observations from a re-analysis of the deposited data

How the results depend on the processing

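Of the 5 alternatives, only recentring alters folds, so no sign could change under the others. It moved the median of −0.04 to 0, a small shift, and no called gene named here changed sign. Recentring turned 3 folds near 0 that were not called, those of Igf1 (0.0337), Zhx2 (0.0302) and Hbb-bs (0.0163). The 4 calls among the members held with no filter on level. An unadjusted p under 0.05 is the looser threshold, so no call could be lost there. The 4 calls also held with recentred folds, but recentring moved every fold upward, the direction of these calls. Kcnq1ot1 was lost at an adjusted p under 0.01, which left 3. Among genes of at least 10 CPM, 4 members remained and 1 was called higher, Slc22a18, because the other called members fall below that level. That filter left 935 genes called higher in all, and 2 higher among neighbours within 1 Mb. An adjusted p under 0.01 left 463 genes lower, and an unadjusted p under 0.05 gave 1634 lower and, among neighbours, 1 lower, Mob2. At an adjusted p under 0.01, Cdkn1b, Cdk2, Irs1, Serpina1a, a hepatocyte marker, and Stab1 also lost their call, and Irs1 did so without the filter. Of the genes named, 8 that were not called passed at an unadjusted p under 0.05, Kdm1b, Mob2, Phlda1, Afp, Trim28, Alb, Kdr and Cdh5, and Phlda1 was also called with recentred folds and among genes of at least 10 CPM. No paired analysis was possible because the table holds no values per liver. For the same reason another normalisation, the replicate block and leaving out each liver were not run, and whether 1 liver decides a call was not tested. Low levels limit the 5 members below 1 CPM most, Igf2, H19, Phlda2, Kcnq1 and Kcnq1ot1.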
